A study of Homo sapiens with 36 samples.

Results

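The HOX genes encode homeodomain transcription factors that lie side by side in 4 clusters, HOXA to HOXD. All 39 protein-coding HOX genes were taken by name (a symbol of HOX, a cluster letter and a number, with antisense RNAs left out) from the 60623 gene rows of the table. HOXA (on chromosome 7) holds 11 of them, HOXB 10 (GRCh38, chr17:48528526-48729178), HOXC 9 (chr12:53938765-54056030) and HOXD 9 (chr2:176092891-176190907). Each member was described in 7 human T cell neoplasm lines grown with a short hairpin RNA against GATA3, a zinc finger factor of the T lineage, or with a scrambled hairpin.

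In the embryo, genes at the 3′ end of a cluster are switched on first and pattern the head end of the body, and genes at the 5′ end (the high numbers) act later and further back. In blood formation the HOXA genes around HOXA9 and several HOXB genes are active in stem and early progenitor cells and are turned down as T cells mature. Trithorax (KMT2A) complexes keep the clusters active and Polycomb complexes keep them silent, and HOX proteins bind DNA together with PBX and MEIS cofactors. A class of T-cell acute lymphoblastic leukaemia is defined by activated HOXA genes, and other cases carry an activated homeobox gene from outside the clusters.

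Polyadenylated RNA was sequenced in 36 libraries, 18 labelled control (scrambled hairpin, genotype given as wild type) and 18 labelled knockdown (GATA3 hairpin). The labels type 3 lines as cutaneous T lymphocytes, abbreviated CTCL (cutaneous T cell lymphoma) from here on. H9 was cloned from HUT 78, a line of Sézary syndrome, and gave 2 control and 3 knockdown libraries. MyLa (Myla CD4+ in the labels), from mycosis fungoides, gave 3 of each, and Mac1 gave 2 of each. The remaining lines are labelled acute lymphoblastic leukaemia and are called T-ALL here. SUP-T1 and CCRF-CEM gave 3 libraries of each arm, MOLT4 gave 2 of each, and THP6 gave 3 controls and 2 knockdown libraries. Each line comes from a single patient, so a class comparison rests on 3 lines against 4. Nothing in the labels says whether the replicates of a line were separate cultures, and p-values within a line may measure technical spread only.

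Library totals ran from 18.62 to 50.63 M expected counts, of which the HOX genes took 292 to 16194. Levels are CPM (counts scaled to a common library total), and CPM per kilobase of exon wherever genes are compared with each other. The label check was GATA3 itself. It was lower in every library labelled knockdown than in every control of the same line in 6 lines, and in SUP-T1 it stood at 24.4, 23.6 and 24.2 CPM in the libraries labelled control and at 81.3, 77.2 and 86.6 CPM in those labelled knockdown. SUP-T1 directions below are therefore those of the labels only. THP6 knockdown 2 stood apart from its replicate, with the lowest correlation of any replicate pair (Pearson r = 0.953 of log2 values across 13080 genes). Of 12 T lineage markers, 8 to 12 reached 1 CPM in the controls of 6 lines and 5 in Mac1, where CD3D, CD3E, CD3G, CD7 and LCK were at 0.

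The start sites of 20 members are covered by 27 RefSeq promoter windows (GRCh38.p14), taken here as the 250 bases before each start. GATA factors bind the core letters of the 6-base words AGATAA or AGATAG and TGATAA or TGATAG, and these 4 words were searched on both strands. At least 1 of these words was present in 5 of the 27 windows (18.5%) and in 22.3% of all 35116 windows of that length. HOXB3, HOXB4, HOXB9 and HOXC10, which passed the knockdown test in a line, have no window and were not searched. The following windows are shown because HOXA10 and HOXA11 fell with GATA3 knockdown in MOLT4 and HOXD13, the most abundant HOXD gene of that line, did not pass the test there. HOXA3 stands beside them as a window that holds a match. Capitals mark the match, and all run 5′ to 3′ on the strand of the gene.
HOXA10 (chr7:27174321-27174570, minus strand, the start nearer the 3′ end of the gene): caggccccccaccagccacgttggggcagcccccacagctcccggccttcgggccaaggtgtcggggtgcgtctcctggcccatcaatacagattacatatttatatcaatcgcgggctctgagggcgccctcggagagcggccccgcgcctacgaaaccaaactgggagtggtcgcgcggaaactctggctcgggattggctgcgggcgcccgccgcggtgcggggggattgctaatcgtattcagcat
HOXA11 (chr7:27185233-27185482, minus strand): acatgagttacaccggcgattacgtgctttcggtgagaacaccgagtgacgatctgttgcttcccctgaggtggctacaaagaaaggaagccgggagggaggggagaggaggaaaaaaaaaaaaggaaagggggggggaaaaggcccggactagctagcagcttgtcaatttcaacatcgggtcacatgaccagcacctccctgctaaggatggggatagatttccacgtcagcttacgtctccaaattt
HOXD13 (chr2:176092471-176092720, plus strand): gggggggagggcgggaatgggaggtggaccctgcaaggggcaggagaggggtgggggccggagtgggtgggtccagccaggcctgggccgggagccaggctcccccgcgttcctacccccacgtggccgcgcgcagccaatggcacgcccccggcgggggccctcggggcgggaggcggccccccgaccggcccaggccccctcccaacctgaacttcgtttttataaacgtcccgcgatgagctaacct
HOXA3 (chr7:27113843-27114092, minus strand): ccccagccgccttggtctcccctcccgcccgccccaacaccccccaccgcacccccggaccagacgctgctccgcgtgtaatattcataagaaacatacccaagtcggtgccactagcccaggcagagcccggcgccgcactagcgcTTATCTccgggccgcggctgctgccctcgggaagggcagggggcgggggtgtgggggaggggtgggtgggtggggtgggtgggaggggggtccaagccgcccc
The HOXA10, HOXA11 and HOXD13 windows held none of the searched words, and the HOXA3 window held AGATAA on its opposite strand. Windows of HOXD12, HOXD3, HOXD4 and a second HOXA3 start also held a match.

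In controls the HOX genes separated the lines into those with much and those with little HOX RNA. The summed level over all 39 members was 367 ± 16.6 CPM in Mac1 (SD, n = 2), 278 ± 12.5 in MyLa (n = 3) and 232 ± 3.56 in H9 (n = 2), against 114 ± 1.22 in MOLT4 (n = 2), 43.6 ± 1.00 in THP6 (n = 3), 31.0 ± 0.465 in SUP-T1 (n = 3) and 16.1 ± 0.393 in CCRF-CEM (n = 3). No control library of a T-ALL line reached the lowest CTCL library. Members at a mean of 1 CPM or more numbered 21 in H9, 21 in Mac1, 16 in MyLa, 11 in MOLT4, 5 in THP6, 4 in SUP-T1 and 2 in CCRF-CEM. Over all lines, 13 members stayed under 1 CPM in every line, 6 of them in HOXD, and HOXC12 had no count in any library.

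**Figure D1:**
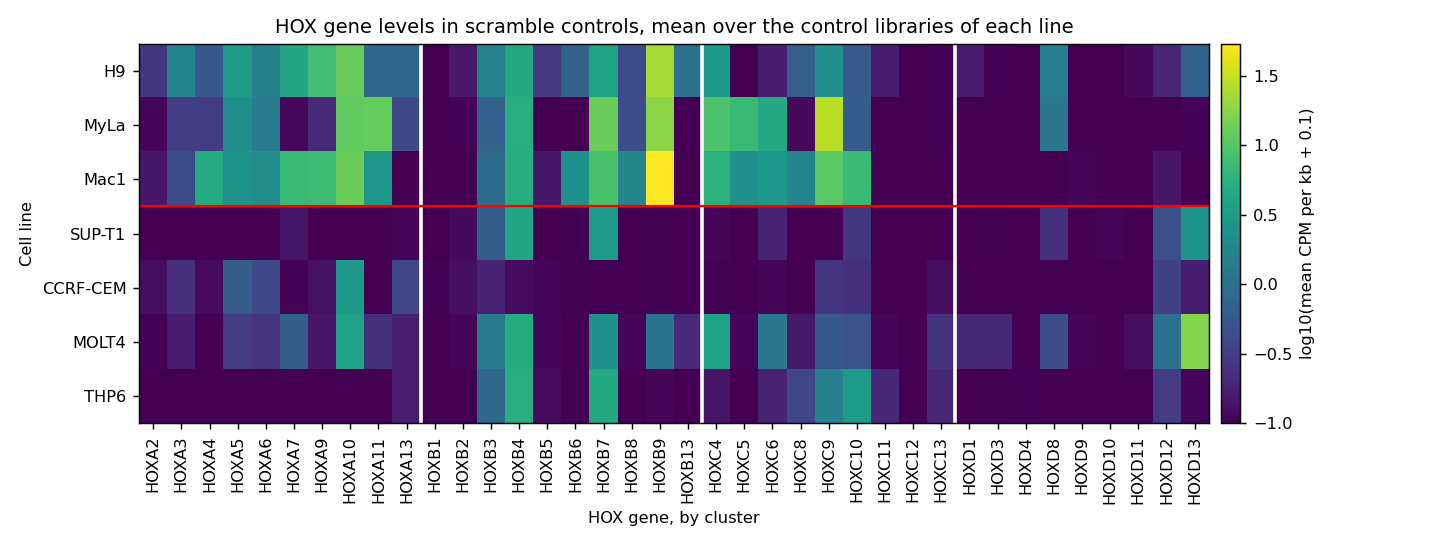
Mean control level of 38 HOX genes (columns, by cluster) in each line (rows), as log10 of CPM per kilobase of exon plus 0.1; the red line separates the 3 CTCL lines above from the 4 T-ALL lines below. HOXA5, HOXA6, HOXA10, HOXA11 and HOXB9 are brighter in every CTCL row than in any T-ALL row, HOXB4 is lit in every row but CCRF-CEM, and the brightest HOXD field is HOXD13 in MOLT4.

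The lines also differed in which cluster carried the RNA. HOXB was the largest contributor in Mac1 (50.8% of HOX counts), THP6 (72.8%) and SUP-T1 (75.5%), HOXA in CCRF-CEM (87.2%) and H9 (48.0%), HOXC in MyLa (36.3%) and HOXD in MOLT4 (35.5%). These shares are of counts, in which long transcripts weigh more. HOXA as a whole was nearly silent in SUP-T1, at 0.328 ± 0.0714 CPM summed, and in THP6, at 0.347 ± 0.00995, where HOXA13 was the only HOXA gene with a count in the controls. HOXB was nearly silent in CCRF-CEM alone (0.874 ± 0.336 CPM), and HOXC in SUP-T1 (0.760 ± 0.226) and CCRF-CEM (0.716 ± 0.0526).

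**Figure D2:**
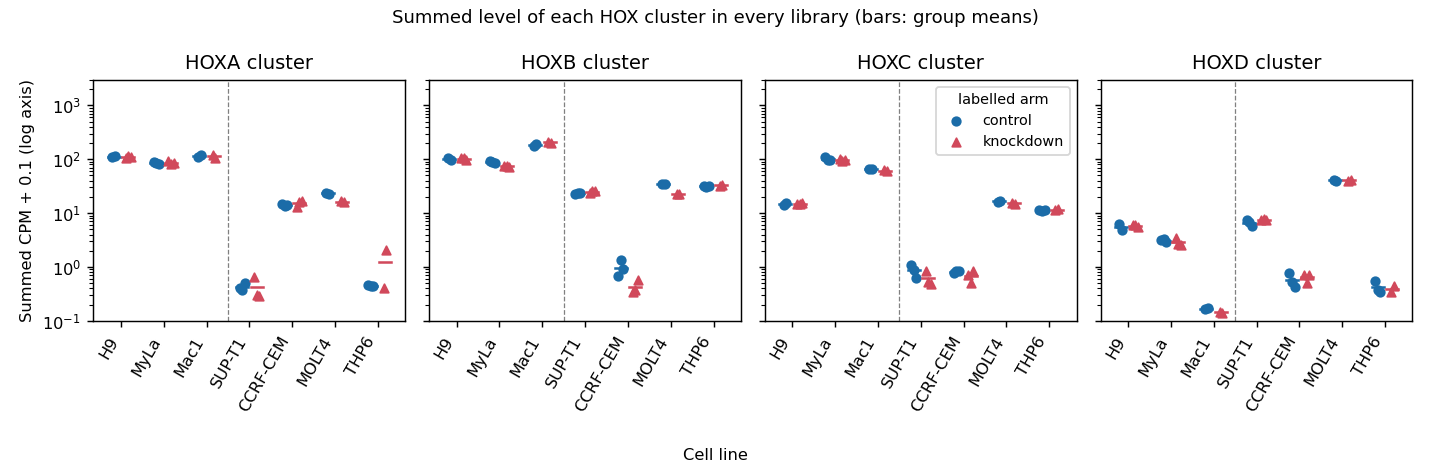
Summed CPM of each cluster, plus 0.1 and on a log axis, in all 36 libraries by line and labelled arm; bars are group means and the dashed line separates CTCL from T-ALL lines. HOXA sums lie between 80.4 and 118 CPM in CTCL controls, HOXB is low in CCRF-CEM only, and HOXD peaks in MOLT4, where HOXA and HOXB are lower in both knockdown libraries than in both controls.

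In the controls, each line was set against the mean of the other 6 on the log2 scale. A member was called only where that difference was shown to exceed 4-fold (edgeR's glmTreat, adjusted p under 0.05, 31 members tested). Of these, 21 were higher in H9 (background over all 21138 genes tested 10.4%), 19 in Mac1 (9.10%), 15 in MyLa (10.8%), 11 in MOLT4 (11.5%), 4 in THP6 (5.61%), 1 in SUP-T1 (7.64%) and 1 in CCRF-CEM (7.31%). The shares of members called higher were 67.7% in H9, 61.3% in Mac1, 48.4% in MyLa and 35.5% in MOLT4. Members that are on in few lines passed the filter on low counts through those lines, so these shares are a description of the members tested and not of all 39. Lower calls numbered 7 in CCRF-CEM (background 2.32%), 3 in SUP-T1 (3.64%), 3 in THP6 (2.57%), 2 in Mac1 (4.93%), 1 in MyLa (4.09%) and 0 in H9 (1.56%) and MOLT4 (1.49%). The 7 of CCRF-CEM were HOXB3, HOXB4, HOXB7, HOXB9, HOXC4, HOXC6 and HOXC10. A member at 0 in a line was not called lower where another line was also at 0. HOXA10, at 0 in SUP-T1 and THP6, had a fitted log2 difference of -10.43 in both and no call. Of the 11 HOXA genes, 8 were at 0 in SUP-T1 controls and 10 in THP6 controls, so the lower counts do not rank the lines.

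Between the classes, the control means of all 3 CTCL lines stood above those of all 4 T-ALL lines for 10 members (HOXA3, HOXA4, HOXA5, HOXA6, HOXA9, HOXA10, HOXA11, HOXB8, HOXB9 and HOXC9), and the reverse held for HOXD12. Single controls overlapped for HOXA3 (0.747 CPM in MyLa control 3, 0.755 in CCRF-CEM control 2) and for HOXD12. All 10 members were among the 23 tested (43.5%), and 6.78% of all 18565 genes tested were ordered in this way. Members on in CTCL lines only passed the filter on low counts through those lines. The share of 43.5% thus describes the members tested and not all 39. The reverse order held for 7.58% of all genes. HOXA5, HOXA6 and HOXA11 reached 1 CPM in every CTCL line and in no T-ALL line. None of the 23 passed the test of 3 summed lines against 4 (edgeR, background 0.280%). An unadjusted p under 0.05 was seen for 8 of the 23, and the share of all genes at that limit was not counted. The lowest adjusted p was 0.0700 for HOXB8 (log2 difference 8.26, SE 1.34). It lay between 0.662 and 3.37 CPM in the CTCL lines and at 0 to 0.0165 in the T-ALL lines. The T-ALL controls held 1 count of HOXB8, in MOLT4 control 2, so the size of this difference is poorly fixed. Leaving out H9 brought HOXB8 (adjusted p = 0.0495) and HOXC5 (0.0317) past the threshold, and leaving out MOLT4 brought HOXB9 (0.0224).

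Among the 5′ HOXA genes, HOXA10, a regulator of early blood progenitors, was the HOXA gene with the most RNA per kilobase in H9, Mac1, MOLT4 and CCRF-CEM. Its control values were 45.2 and 47.5 CPM in H9, 44.2, 43.3 and 41.7 in MyLa, 43.8 and 49.2 in Mac1, 13.9 and 13.3 in MOLT4, 10.9, 9.97 and 10.6 in CCRF-CEM, and 0 in all 6 control libraries of SUP-T1 and THP6. Mac1 overlapped both H9 and MyLa, MyLa lay below H9, and MOLT4 stood above CCRF-CEM without overlap. In CCRF-CEM, HOXA10 made up most of the HOX RNA of the line, at 10.5 ± 0.450 of 16.1 CPM.

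HOXA9, the leukaemia-associated neighbour of HOXA10, was high in 2 lines only. Control values were 22.2 and 24.4 CPM in H9 and 22.2 and 22.4 in Mac1. MyLa libraries had 0.361, 0.368 and 0.315 CPM, and no T-ALL control exceeded 0.192. MyLa instead had HOXA11 at 30.0, 27.3 and 26.7 CPM, against 6.49 and 6.09 in Mac1, 1.78 and 1.61 in H9 and 0.216 and 0.397 in MOLT4. HOXA11 had no count in any library of SUP-T1, CCRF-CEM or THP6. All 7 CTCL controls thus had HOXA10 between 41.7 and 49.2 CPM, while its neighbours on either side differed between these lines without overlap, apart from HOXA9 in H9 and Mac1. Part of the exon sequence is shared with other genes: HOXA11 shares 31.1% of its exon bases with HOXA11-AS on the other strand, HOXA10 shares 16.4% with HOXA10-AS, and a readthrough gene covers 9.9% of HOXA10 and 13.1% of HOXA9. Whether counting used strand is not given, so reads of such pairs may be split between them.

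HOXA13, at the 5′ end, was seen in H9 (3.85 and 3.69 CPM), MyLa (1.18 to 1.73) and CCRF-CEM (1.19 to 1.60), and was 0 in Mac1. HOXA5 lay between 3.22 and 5.74 CPM in every CTCL control and at 0.888 to 0.994 in CCRF-CEM, the highest T-ALL line for this gene.

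In HOXB, the genes HOXB3, HOXB4 and HOXB7 reached 1 CPM in every line but CCRF-CEM. Of the genes between and beside them, HOXB5 stayed under 1 CPM in all lines, HOXB6 reached it in H9 and Mac1, and HOXB8 in Mac1. HOXB4, known for expanding blood stem cells when overexpressed, had means of 14.7 CPM in SUP-T1, 17.2 in H9, 18.1 in MOLT4, 18.7 in Mac1, 19.0 in MyLa and 19.2 in THP6, with single controls from 13.9 to 20.04. In CCRF-CEM it was at 0.0386, 0.162 and 0.0321 CPM. The 6 lines with HOXB4 RNA thus spanned a range of less than 1.5-fold across both classes, and the one that differed was CCRF-CEM, in which HOXB7 was 0 in all controls and HOXB3 was at 0.347 to 0.970 CPM. Outside CCRF-CEM, HOXB7 ranged from 3.35 CPM in a MOLT4 control to 19.9 in a MyLa control, and HOXB3 from 3.83 to 13.0 CPM.

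HOXB9, toward the 5′ end of the cluster, separated the classes most widely among members with over 5 CPM in every CTCL line. Control values were 131 and 146 CPM in Mac1, 60.3 and 60.3 in H9 and 48.1, 45.8 and 43.5 in MyLa. MOLT4 had 2.48 and 3.01 CPM, and the 9 controls of SUP-T1, CCRF-CEM and THP6 had at most 0.0483. The lowest CTCL line was 16.7 times the highest T-ALL line, and the CTCL lines did not overlap each other. Per kilobase, HOXB9 was the HOX gene with the most RNA in H9 (23.4 CPM per kb) and Mac1 (53.6).

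In HOXC, 6 genes reached 1 CPM, each in the controls of 2 to 4 lines. In HOXD, 3 genes did, HOXD12 in 1 line, HOXD8 in 2 and HOXD13 in 3. HOXC9 had the most RNA per kilobase of any member in MyLa (27.7 CPM per kb), at 49.9, 44.3 and 45.3 CPM, against 17.01 and 18.9 in Mac1, 3.93 and 3.72 in H9 and 2.80, 2.21 and 2.37 in THP6. HOXC4 was at 26.3, 23.3 and 23.8 CPM in MyLa, 14.2 and 16.6 in Mac1, 9.68 and 10.4 in MOLT4 and 7.89 and 8.51 in H9, and did not exceed 0.195 in the other lines. HOXC10 was at 16.8 and 15.8 CPM in Mac1 and at 6.96, 7.45 and 7.24 in THP6, where it had the most RNA per kilobase of the HOXC genes, and no control of the other lines exceeded 1.43 CPM. HOXC5 was seen in MyLa (10.9 to 13.3 CPM) and Mac1 (3.76 and 4.47) and was 0 in H9. HOXC4 and HOXC6 share 484 exon bases, and 59.9% of HOXC5 exon bases are also assigned to a second HOXC5 identifier, so the split among these genes is uncertain.

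HOXD13, the most 5′ HOXD gene and a limb and genital patterning factor, reached 37.9 and 37.5 CPM in MOLT4, and per kilobase it was the most abundant HOX gene of that line (16.8 CPM per kb). It stood at 6.25, 5.76 and 4.83 CPM in SUP-T1 and at 1.37 and 1.42 in H9, and no control of the other 4 lines exceeded 0.162. HOXD8 was highest in H9 (4.41 and 3.03 CPM) and MyLa (2.71 to 3.16). HOXD12, next to HOXD13, was the only member with the mean of every T-ALL line (0.270 to 1.28 CPM) above that of every CTCL line (0 to 0.128). Single controls overlapped, with THP6 control 3 at 0.145 CPM and H9 control 2 at 0.183.

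The response to GATA3 knockdown was tested within each line in 31 members, and p-values were adjusted over all 21138 genes tested (edgeR's quasi-likelihood test). In bulk RNA, fewer cells with a gene and less RNA of it per cell cannot be told apart. Members passed in 4 lines and 8 of 217 member-line pairs. MOLT4 had 5 calls, all lower (16.1% of members, while 10.3% of all genes were called lower and 19.2% either way). MyLa had 1 lower call (0.861% of all genes lower, 1.88% either way), Mac1 had 1 lower call (2.35% and 7.89%), and THP6 had 1 higher call (5.56% of all genes higher, 7.40% either way). H9 (1.82%), SUP-T1 (16.7%) and CCRF-CEM (8.44%) had none, with 1, 1 and 2 members at an unadjusted p under 0.05, and DESeq2 called 0, 0 and 1 there.

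**Figure D3:**
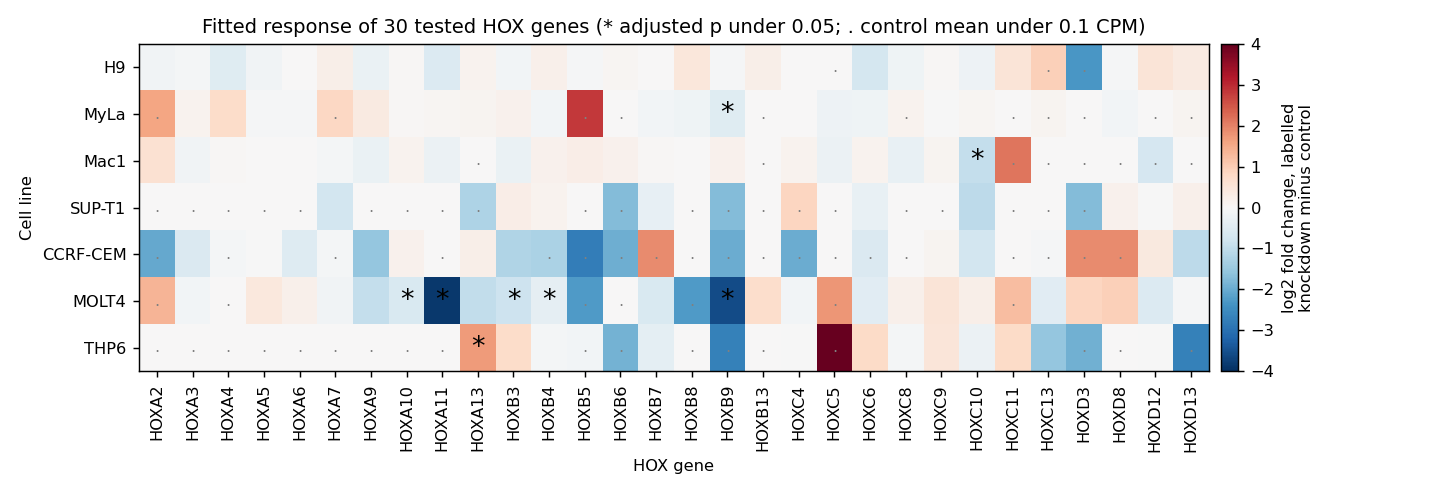
Fitted log2 fold change (colour, labelled knockdown minus control) of 30 of the 31 tested HOX genes in each line; a star marks an adjusted p under 0.05 and a dot a control mean under 0.1 CPM, where the fitted value rests on very few counts. The 8 stars are 5 lower genes in MOLT4, HOXB9 in MyLa, HOXC10 in Mac1 and HOXA13, the only one higher, in THP6.

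In MOLT4 the falls were in HOXA and HOXB. HOXB9 went from 2.48 and 3.01 CPM in controls to 0.171 and 0.278 in knockdown libraries and fell by 3.59 on the log2 scale (SE 0.262, adjusted p = 3.00e-10). Both knockdown libraries lay far below both controls. HOXA10 went from 13.9 and 13.3 to 9.03 and 8.69 CPM (log2 fold change -0.62, SE 0.127, adjusted p = 0.00121), again without overlap. HOXA11, a low gene in this line, had 18 counts over the 2 controls and 1 over the 2 knockdown libraries (adjusted p = 0.00143). That is a ratio of 17.99 with a 95% counting interval of 2.84 to 750, so its size is poorly fixed. HOXA11-AS, which overlaps HOXA11, was at 0 in the MOLT4 controls.

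HOXB3 went from 10.1 and 7.94 to 5.03 and 5.11 CPM in MOLT4 (log2 fold change -0.83, SE 0.264, adjusted p = 0.0247). HOXB4 went from 17.5 and 18.7 to 14.8 and 13.6 CPM, which is 21.5% lower (log2 fold change -0.35, SE 0.113, adjusted p = 0.0272). Groups did not overlap for either gene. Both calls were fragile: with 1 library of an arm left out, and the lone sample assumed to vary like the others, HOXB4 missed the threshold in all 4 cases (adjusted p 0.0623 to 0.210) and HOXB3 in 3 of 4, without control 1 or either knockdown library (0.102 to 0.224).

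Over all 31 tested members in MOLT4, 18 fitted values were negative with a median log2 fold change of -0.12, beside a median of 0 over all genes tested. Among the members at 1 CPM or more in either arm, 11 of 14 were negative with a median of -0.38, beside 51.2% negative and a median of -0.01 over the 14320 genes at that level. Not all HOX genes of this line moved together. HOXD13 was at 37.9 and 37.5 CPM in controls and 35.6 and 37.6 in knockdown libraries, and HOXC4 at 9.68 and 10.4 against 9.41 and 9.08. HOXD8 was at 1.15 and 0.628 CPM in controls and 1.78 and 1.63 in knockdown libraries, and did not pass (log2 fold change 0.94, adjusted p = 0.0719). HOXB7, at 3.35 and 4.04 against 2.16 and 2.71 CPM, did not pass either (log2 fold change -0.60, adjusted p = 0.0651).

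T lineage markers moved in MOLT4 as well. Their summed level over 12 markers was 3592 CPM in controls and 4203 in knockdown libraries. CD2, CD3D, CD3G, CD7 and LCK rose and TCF7, GATA3 and BCL11B fell, where 19.2% of all genes were called. CD7, an early T cell antigen, went from 17.6 ± 1.09 to 359 ± 29.1 CPM (n = 2 each). Their part in the HOX result was not tested.

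HOXB9 was the only member called in 2 lines. In MyLa it went from 48.1, 45.8 and 43.5 CPM to 33.7, 32.4 and 32.4, which is 28.3% lower (log2 fold change -0.48, SE 0.0928, adjusted p = 0.00423). All 3 knockdown libraries lay below all 3 controls, and the call held with any 1 of the 6 libraries left out. In the other CTCL lines the same gene was at 60.3 and 60.3 against 59.4, 61.3 and 55.1 CPM in H9, and at 131 and 146 against 159 and 155 in Mac1, where it did not pass. Both Mac1 knockdown libraries lay above both Mac1 controls.

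HOXC10 was the called member of Mac1, at 16.8 and 15.8 CPM in controls and 8.40 and 8.47 in knockdown libraries, which is 48.2% lower (log2 fold change -0.95, SE 0.211, adjusted p = 0.00395). The other HOXC genes of Mac1 did not pass, among them its neighbour HOXC9 at 17.01 and 18.9 against 19.9 and 19.0 CPM. Without control 1 the adjusted p of HOXC10 was 0.0698, and without knockdown 1 it was 0.0634. In THP6, the line with the next highest HOXC10 level, it stood at 6.96, 7.45 and 7.24 CPM in controls and at 7.39 and 4.85 in knockdown libraries.

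The call of HOXA13 in THP6 rested on 1 library. Controls had 0.358, 0.345 and 0.338 CPM, knockdown 1 had 0.312 and knockdown 2 had 1.95 (log2 fold change 1.69, SE 0.440, adjusted p = 0.0182). Without knockdown 2 the log2 fold change was -0.15 with an adjusted p of 1. The same library also differed from its replicate in HOXB3 (11.9 against 6.17 CPM), HOXB7 (3.66 against 7.11), HOXC9 (5.02 against 1.84) and HOXC10 (4.85 against 7.39).

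**Figure D4:**
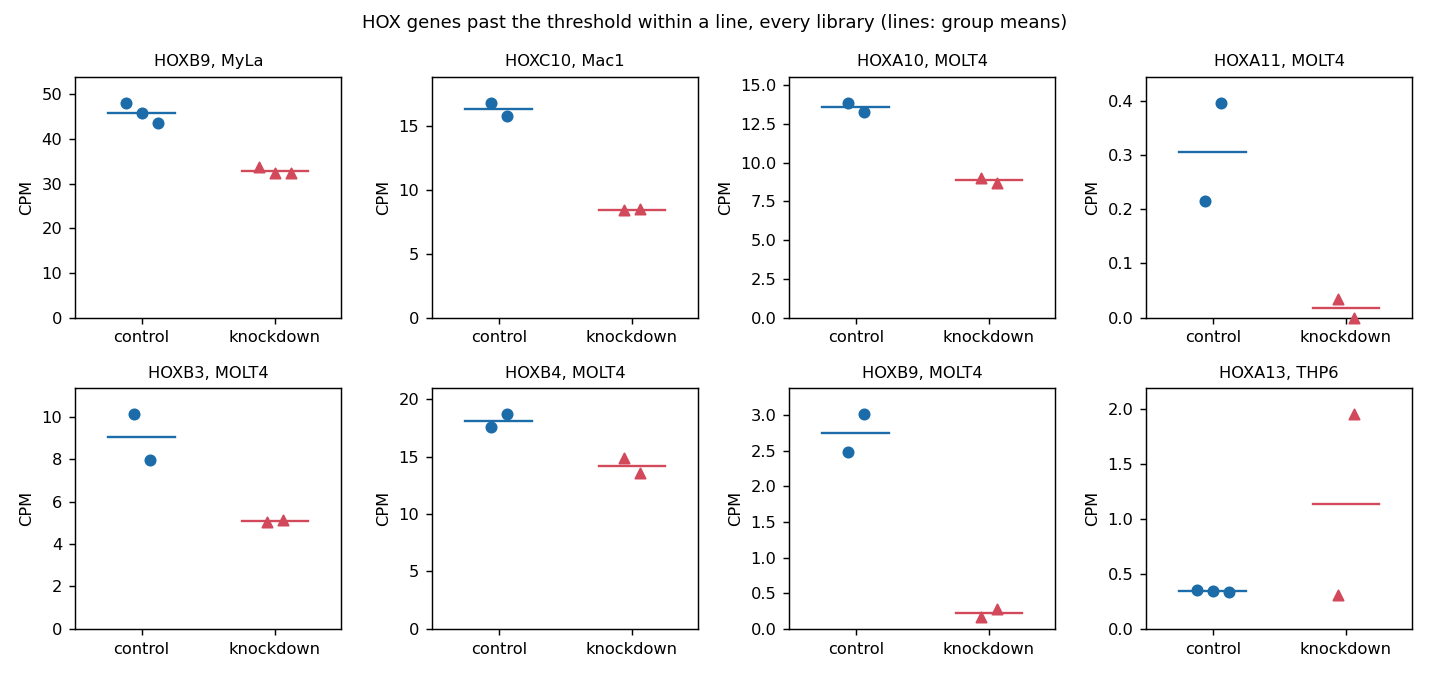
CPM in every library of the line for the 8 member-line pairs past the threshold, controls as circles and knockdown libraries as triangles, with lines at group means and each axis starting at 0. The groups are apart in 7 panels, and in the HOXA13 panel 1 knockdown library lies at 1.95 CPM and the other at the level of the controls. The panels were chosen by the test. Called or not, 16 of the 31 tested members had groups apart in MOLT4, 9 in Mac1, 8 in H9 and 6 in MyLa. The number was 4 in SUP-T1, 4 in THP6 and 2 in CCRF-CEM. The share of all genes with groups apart was not counted, so separation in so few libraries adds little.

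The response differed between lines for 6 of 31 members in the test of the line-by-arm interaction (edgeR, background 35.2%). They were HOXB9 (adjusted p = 3.43e-08), HOXB3 (0.00609), HOXA10 (0.0144), HOXB4 (0.0175), HOXA11 (0.0208) and HOXC10 (0.0349). Without MOLT4, an alternative added after values were seen, HOXB9 (0.00654) and HOXB3 (0.0332) passed. Without a filter on low counts, HOXB4 (0.186) and HOXC10 (0.0906) missed the threshold, and without SUP-T1, HOXC10 did (0.0582). No mean response over the lines was detected. Of 18 members tested on sums per line, 0 passed and 0 had an unadjusted p under 0.05, and 0 of 17382 genes passed (0.00%). The mean follows the labels, with SUP-T1 included, where GATA3 was higher in the libraries labelled knockdown. GATA3 itself did not pass, so this test cannot show that a shared response is absent.

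For the regulators of the clusters, PBX and MEIS cofactors of HOX proteins gave 10 tested genes of 11. Counts of calls higher and lower were 0 and 0 in H9, MyLa and THP6, 1 and 4 in SUP-T1 (16.7% of all genes called either way), 1 and 2 in MOLT4 (19.2%), 2 and 0 in Mac1 (7.89%) and 3 and 1 in CCRF-CEM (8.44%). PBX2 was at 44.5 to 144 CPM in the controls of all lines. MEIS1, the partner of HOXA9 in leukaemia, was at 0 in MyLa, at 3.57 in H9, 4.52 in Mac1 and 15.5 ± 1.25 CPM in SUP-T1, a line without HOXA9. In SUP-T1 libraries labelled knockdown, in which GATA3 was higher, MEIS1 was at 7.46 ± 0.409 CPM (log2 fold change -1.06, adjusted p = 5.56e-06).

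Polycomb genes gave 9 higher and 1 lower of 27 in MOLT4, beside 19.2% of all genes called there. Those with higher calls included PCGF5, a subunit of a variant repressive complex, at 66.8 ± 1.34 against 133 ± 17.8 CPM (log2 fold change 0.99, adjusted p = 5.65e-06), and RING1, a ubiquitin ligase of such complexes, at 87.9 ± 2.24 against 127 ± 0.177 (0.53, 0.000143). The median log2 fold change of the list in MOLT4 was 0.06. Calls numbered 6 in SUP-T1 (16.7% of all genes called), 5 in THP6 (7.40%), 5 in CCRF-CEM (8.44%), 4 in Mac1 (7.89%), 2 in MyLa (1.88%) and 1 in H9 (1.82%). The list of the trithorax side also held DOT1L and genes such as SET and NUP98. Of its 22 genes, 2 rose and 3 fell in MOLT4, a share near the 19.2% of all genes. Among the latter was MEN1, the scaffold that tethers KMT2A to HOX genes, from 112 ± 1.16 to 83.6 ± 1.64 CPM (log2 fold change -0.42, adjusted p = 0.000200). In THP6, 6 of 22 were called higher (5.56% of all genes), KMT2A among them at 50.6 ± 4.37 against 100 ± 48.8 CPM. The 2 knockdown libraries were far apart for all 6, with SDs from 42.4 CPM (KMT2B) to 126 CPM (DOT1L). In Mac1 KMT2A was called lower, at 176.9 ± 22.65 against 90.05 ± 11.17 CPM (log2 fold change -0.98, adjusted p = 0.0182), where 2.35% of all genes were lower. PSIP1 and MLLT3 of the same list were called higher in Mac1. Any link between these genes and the HOX values was not tested.

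Of 24 noncoding RNAs of the clusters, 10 were tested and 0 passed in any line. In controls HOTAIRM1 of the HOXA cluster was at 9.74 CPM in H9, 3.67 in MyLa, 3.06 in Mac1, 2.304 in MOLT4 and 0.719 in SUP-T1, and at 0 in CCRF-CEM and THP6. HOXA11-AS was highest in MyLa (16.2 CPM), as HOXA11 was. HAGLR and HAGLROS of the HOXD cluster were at 5.66 and 4.49 CPM in THP6, where the summed HOXD coding genes reached 0.324. The 6 cluster miRNA genes of the table were at 0 in every library, and polyadenylated RNA was selected. Genes beside the clusters gave 6 higher and 2 lower calls of 18 in Mac1 (7.89% of all genes called), 3 higher and 1 lower in MOLT4 (19.2%) and 1 higher and 4 lower in SUP-T1 (16.7%). CCRF-CEM (8.44%) and THP6 (7.40%) each had 3 higher calls, H9 (1.82%) had 1 lower and MyLa (1.88%) had none.

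Homeobox genes outside the clusters were on in the T-ALL lines other than SUP-T1. NKX2-5 was at 645 ± 47.4 CPM in CCRF-CEM and 297 ± 15.2 in THP6, and MOLT4 had 30.8 CPM of NKX2-5 and 25.7 of NKX2-1. In SUP-T1 the highest of the 7 was NKX2-2 at 1.91 CPM, while H9, a CTCL line, had 23.0 of it. TLX2 fell in MOLT4 from 4.31 ± 0.0142 to 1.71 ± 0.395 CPM (log2 fold change -1.33, adjusted p = 0.00571).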

How the data were processed

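Each library was assigned to a line and an arm by its title, also for SUP-T1, whose cell line field runs from SUP-T1 to SUP-T6. The deposited values are expected counts per gene, which the authors made, per the submitters' processing notes, with cutadapt 2.3, STAR 2.7.8a and RSEM 1.3.3 on GRCh38. All values were already whole. Annotation release and strand setting: not given in the sources used here. The table also holds 5 reporter rows with no count, which were left out. Exon lengths, coordinates and overlaps come from GENCODE 29, which holds all 39 members, and promoter windows from RefSeq.

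The members and gene lists were chosen with earlier results of these data known. All members entered the counts, sums and tests, and values of 1 member and 1 list gene are not reported here. A member was given library by library where it passed the test in a line, or led its cluster per kilobase in a line at 5 CPM or more, and a few others were added as examples after values were seen. List genes were named by lowest adjusted p or highest level.

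edgeR 4.0.16 (R 4.3.3) fitted 14 groups over 36 libraries with TMM scaling, filterByExpr and quasi-likelihood F tests. Benjamini-Hochberg adjustment ran over all genes tested, at a threshold of 0.05. Line levels used glmTreat with a bar of 2 on the log2 scale. Classes and the mean response were tested on counts summed per line. CPM is the count over the TMM-scaled library total. A count of 0 in a library allows up to 3 counts, 0.0730 to 0.162 CPM. Intervals cover counting error only. Replicates all differed by more than sampling noise (scatter 3.88 to 177 times Poisson over 30 pairs). On simulated data the tests within lines recovered 86 to 97% of 2-fold changes, with 2.53 to 6.73% false calls. The simulation used a single spread for all genes and changed only genes above a minimum count, which HOXA11 in MOLT4 does not reach. These rates were therefore not measured for low members or for libraries with wider scatter. Alternatives were DESeq2 1.42.0, its size factors, no filter, a minimum fold, a separate fit of each line, the replicate block and leaving out libraries or lines. Figures used matplotlib 3.10.9.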

Additional observations from a re-analysis of the deposited data

Results flagged for a closer look

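The knockdown response differed between lines, by the interaction test, for HOXB9 (adjusted p = 3.43e-08), HOXB3 (0.00609), HOXA10 (0.0144), HOXB4 (0.0175), HOXA11 (0.0208) and HOXC10 (0.0349). For HOXB9 the log2 fold change was -3.59 in MOLT4 and -0.48 in MyLa, while the Mac1 means were 138 and 157 CPM in control and knockdown libraries. For HOXB3 it was -0.83 in MOLT4 and 0.74 in THP6, the latter with knockdown libraries at 6.17 and 11.9 CPM. HOXC10 had its called fall in Mac1, and HOXA10, HOXB4 and HOXA11 had theirs in MOLT4.

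The summed HOXD level of MOLT4 controls, 40.5 CPM, stood apart from those of the other T-ALL lines at 6.51, 0.469 and 0.324 CPM. On the CPM scale the gap to the nearest line was 0.846 of the whole range, above the critical value of 0.829 for 4 values. Chance passes that limit in about 1 in 20 groups of normally spread values. These values span a wide range, and on a log scale the gap is a smaller part of it. The choice of this group is not allowed for either, so the value is a flag only.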

How the results depend on the processing

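Of 181 alternative counts of members, 155 stayed within 1.5 times the reported count and 26 did not, and of 90 alternative values of single called genes 70 kept direction and call, 19 missed the threshold and 1 reversed. The reversal was HOXA13 in THP6 without knockdown 2, at -0.15; leaving out its other libraries moved it up to 2.48. With a minimum log2 fold change of 1, calls were 0 in MyLa, 0 in Mac1 and 2 in MOLT4 (HOXA11 and HOXB9). Without a filter and by DESeq2 they were 1 in CCRF-CEM (HOXB3) and 3 in THP6 (HOXA13, HOXB3 and HOXC5) each. Fitting each line separately gave 0 in THP6, where 9 members were tested. Leaving out single libraries gave 0 to 1 in Mac1, SUP-T1 and CCRF-CEM, 3 to 4 in MOLT4 and 0 to 5 in THP6. Without MOLT4 the number of members differing between lines was 2. The class test called 2 members without H9 and 1 without MOLT4. A bar of 1 in place of 2 on the log2 scale gave 8 calls in SUP-T1 in place of 4. In CCRF-CEM 5 members reached 0.5 CPM and 1 reached 2 CPM. Size factors in place of TMM changed the sign of 10 of 217 member-line values and moved none by more than 0.031 on the log2 scale. The causes were not tested.

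Same-numbered libraries were not treated as pairs in the main fit, and the labels do not say whether they share a batch. The 17 correlations of their residuals ran from -0.0596 to 0.0937. In Mac1 and MOLT4, with 2 libraries of each arm, both values are equal by construction, so these are not 17 separate checks. With the replicate block the calls were 0 in THP6 and 3 members differed between lines (HOXB3, HOXB4 and HOXB9). Depth limits the low members: in MOLT4 a group at 0 allows 0.0517 CPM, and folds of members under about 0.1 CPM are not fixed by these counts.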
